A study of Mus musculus with 8 samples.

Results

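RNA levels in mouse embryonic stem cells (mESCs) that lack menin were compared with those in wild-type mESCs, using 4 of the 8 arrays of the series. The arrays were chosen by their titles, and none by its values. Wild-type cells were of the TC-1 line, and menin-null cells of the 3.2N line, a knockout of Men1, the gene that encodes menin. Both lines had the genetic background 129S6/SvEvTac. Each line was grown on irradiated feeder fibroblasts in medium with leukemia inhibitory factor (LIF), a cytokine that holds mESCs in the undifferentiated state, and was then freed of feeders and moved to gelatin. No other agent was applied to the mESCs of either genotype. Total RNA of 2 independent cultures of each line was hybridised to Affymetrix mouse genome arrays. Because each genotype is represented by 1 line, genotype and line cannot be told apart, and each p-value rests on how far cultures of 1 line differed. The other 4 arrays hold RNA of PILECs, pancreatic islet-like endocrine cells made from the same lines, and entered only the shared estimate of the spread and the comparison of the menin-null effect between the cell types.

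Menin is a nuclear scaffold protein that tethers the MLL1 and MLL2 enzymes to chromatin. These enzymes add H3K4me3, a methyl mark found at the promoters of active genes. In people, loss of menin predisposes to endocrine tumours. Many of the genes described here are imprinted: only the copy from the mother or only that from the father is transcribed, and the choice is set by DNA methylation laid down in the egg or sperm. The MLL complexes are counteracted at many developmental genes by Polycomb complexes, and mESCs keep such genes poised while a network of transcription factors maintains pluripotency.

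Values are the deposited log2 signals, and differences are menin-null minus wild type on the log2 scale with their standard error (SE, 2 arrays per group). A gene is said to rise or fall where limma gave an adjusted p under 0.05 over all 18193 genes tested, and a mean of at least 7 is taken as expressed. Across genes, arrays of the same group correlated at 0.998 for wild-type and 0.994 for menin-null mESCs, and menin-null array 2 correlated as closely with wild-type array 1 (0.995). The medians of the 4 arrays lay between 6.73 and 6.74. All 8 markers of embryonic stem cells were expressed, and their mean was 13.18 and 13.19 in the wild-type arrays and 13.18 and 13.19 in the menin-null arrays. In bulk RNA, fewer cells of a type and less RNA per cell cannot be told apart. Of 11 markers of feeder fibroblasts 3 were expressed, and the list had a mean signal of 6.39 and 6.55 in wild-type and 6.25 and 6.47 in menin-null arrays.

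Men1 itself was measured first. Its signal was 9.90 and 9.97 in wild-type and 7.77 and 7.82 in menin-null arrays, a fall of 4.42-fold (difference -2.14, SE 0.09, adjusted p = 7.07e-05). The menin-null arrays lay far below both wild-type arrays. The other Men1 probe sets differed by -1.99 and -0.18, and their place relative to the deleted part of the gene was not analysed here. Among the 20 genes of the MLL and COMPASS complexes Men1 was the only one called, and 5 of the 20 had an unadjusted p under 0.05. The methyltransferases Kmt2a and Kmt2b, which bind menin, differed by -0.21 (adjusted p = 0.27) and -0.01. Their partner Psip1 differed by 0.03, and the core subunits Wdr5, Rbbp5, Ash2l and Dpy30 by 0.18, 0.01, 0.26 and -0.03. Of 21 Polycomb genes limma called 0, with 3 at an unadjusted p under 0.05, a range of -0.35 to 0.18 and Ezh2 at -0.01. RNA of the known partners and antagonists of menin showed no called difference, with a median of 0.02 for the MLL and COMPASS list and -0.01 for the Polycomb list. Of all 18193 genes 3.64% were called, and 3370 had an unadjusted p under 0.05. The absence of calls in lists of this size is thus near the share of all genes and does not set them apart.

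Over all genes 663 of 18193 were called (3.64%), of which 234 were higher (1.29%) and 429 lower (2.36%) in menin-null mESCs. The median difference of all genes was 0.01. Rises were small, with a median size of 0.55 and 9 genes at 1 or more. Falls had a median size of 0.66, and 63 were of at least 1, of which 9 were of at least 2. For every called gene the 4 arrays did not overlap between genotypes, but that was also true of 24.1% of all genes in the higher and 24.9% in the lower direction. At an unadjusted p under 0.05 there were 3370 genes. With 2 arrays against 2, exact permutation cannot take any gene's p below 0.333, and the calls rest on the model. Leaving out a wild-type mESC array took the number called to 44 (array 1) or 66 (array 2). Leaving out a menin-null mESC array took it to 347 (array 1) or 1430 (array 2), and leaving out 1 wild-type PILEC array, either one, to 269. With the mESC arrays alone 12 genes were called. Of the 76 called genes named by rule, 23 kept the call without wild-type array 1 and 23 without wild-type array 2. Men1, Meg3, Mirg and Pim2 kept it under every alternative tried. AF067061 and Nnat kept it under every alternative except the one without probe sets ending in _s, _x or _a. There they have no probe set and were not tested.

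**Figure D1:**
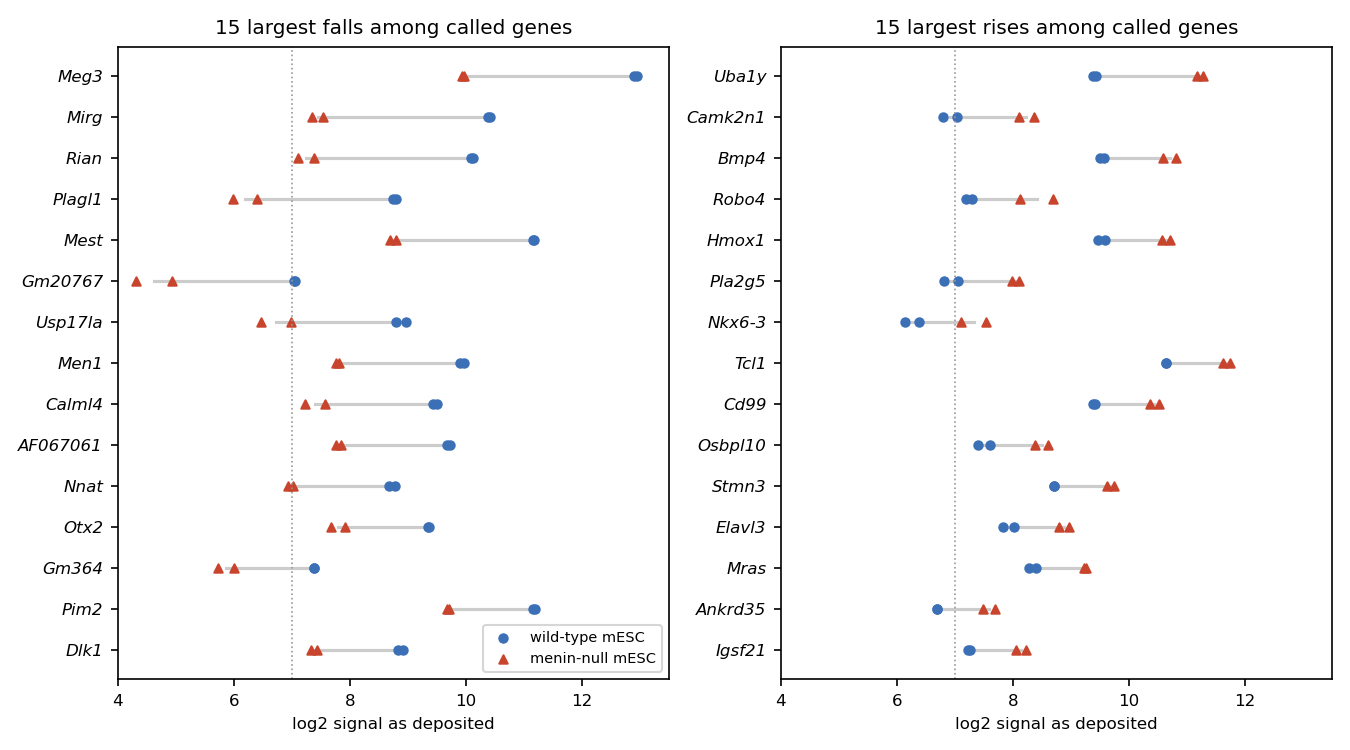
Log2 signal (horizontal axis, as deposited) of the 15 called and expressed genes with the largest falls (left) and rises (right), 1 row per gene. Circles are the 2 wild-type and triangles the 2 menin-null mESC arrays, the grey line joins the group means, and the dotted line is the limit of 7 for expression. Meg3 heads the falls at -2.97 and Uba1y the rises at 1.82.

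The 5 largest falls were at imprinted genes. Promoter sequences of the 4 imprinted genes Meg3, Mest, Plagl1 and Nnat, which lie on different chromosomes and fell together, are shown so that their base composition can be read beside the values. Each is the 250 bases before a transcription start in RefSeq (GRCm38.p6, plus strand, 5′ to 3′), taken at the start with the most CG pairs where a gene has several. Capitals mark matches to TGCCGC, or to its reverse complement GCGGCA on the other strand, the core motif of ZFP57, a protein that protects methylated imprints.
Meg3, chr12:109540746-109540995: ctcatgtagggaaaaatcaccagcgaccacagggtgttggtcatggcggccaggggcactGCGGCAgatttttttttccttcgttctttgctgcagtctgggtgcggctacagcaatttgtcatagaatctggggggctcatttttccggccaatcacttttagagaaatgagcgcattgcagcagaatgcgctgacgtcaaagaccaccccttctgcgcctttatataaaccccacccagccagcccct
Mest, chr6:30737800-30738049: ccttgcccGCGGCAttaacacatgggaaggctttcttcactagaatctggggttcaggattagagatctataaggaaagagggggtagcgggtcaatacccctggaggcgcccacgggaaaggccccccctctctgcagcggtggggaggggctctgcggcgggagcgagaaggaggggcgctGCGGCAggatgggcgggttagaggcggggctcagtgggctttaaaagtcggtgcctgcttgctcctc
Plagl1, chr10:13090582-13090831: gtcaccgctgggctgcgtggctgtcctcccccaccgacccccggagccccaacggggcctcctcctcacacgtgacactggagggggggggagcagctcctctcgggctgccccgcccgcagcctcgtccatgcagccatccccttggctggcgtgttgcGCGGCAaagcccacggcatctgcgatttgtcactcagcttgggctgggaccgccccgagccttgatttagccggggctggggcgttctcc
Nnat, chr2:157559828-157560077: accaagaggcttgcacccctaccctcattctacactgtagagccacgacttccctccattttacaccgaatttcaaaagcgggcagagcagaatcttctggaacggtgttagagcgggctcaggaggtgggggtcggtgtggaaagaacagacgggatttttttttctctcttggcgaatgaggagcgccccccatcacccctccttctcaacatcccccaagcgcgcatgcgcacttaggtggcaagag
These windows hold 10 CG pairs for Meg3, 14 for Mest, 19 for Plagl1 and 12 for Nnat, against a median of 14 over the 14452 tested genes with a promoter in the table. The motif was found once for Meg3 and Plagl1, 2 times for Mest, and not in the window of Nnat, while 12.7% of the promoters of tested genes hold it. Among measured imprinted genes methylated in the egg, 4 of 17 paternally expressed (23.5%) and 4 of 14 maternally expressed ones (28.6%) hold it. Of the 4 paternally expressed genes that fell, which include Magel2, 2 hold it. A match of these letters is a description and not a bound site.

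Meg3, a long noncoding RNA transcribed from the maternal chromosome, had the largest fall of all genes. Its signal was 12.94 and 12.90 in wild-type and 9.93 and 9.98 in menin-null arrays, 7.83-fold lower (difference -2.97, SE 0.08, adjusted p = 7.43e-06). The differences of the 10 other Meg3 probe sets lay between -3.35 and -1.05. Mirg, the host transcript of a microRNA cluster, was at 10.38 and 10.41 in wild-type and 7.54 and 7.35 in menin-null arrays (difference -2.95, SE 0.09, adjusted p = 1.27e-05). Rian, which hosts small nucleolar RNAs, was at 10.12 and 10.09 against 7.10 and 7.39 (difference -2.86, SE 0.27, adjusted p = 0.00392). On these probe sets the 3 maternally expressed RNAs fell by similar amounts. In each the menin-null arrays were near the limit for expression or, for Meg3, well above it. The other Rian probe sets differed by -3.78, -2.76 and -1.94, and the other Mirg probe set by -3.01.

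Dlk1, a transmembrane protein gene of the same locus that is transcribed from the paternal chromosome, was at 8.92 and 8.83 in wild-type and 7.34 and 7.43 in menin-null arrays, 2.80-fold lower (SE 0.14, adjusted p = 0.00478). This value rests on a probe set that can cross-hybridise, and the other Dlk1 probe set differed by -0.10. Of 8 listed genes of the locus these 4 were measured and the other 4, Rtl1, Dio3 and 2 transcripts known by RIKEN clone names, were not. The 4 had a median of -2.90. Dio3os, which follows Mirg in the order of expressed genes and was not on the list, differed by 0.26 (adjusted p = 0.41). All 4 listed genes kept the call when each of the 8 arrays was left out in turn and on the mESC arrays alone. In PILECs the same genes differed by 0.06 for Meg3, 0.00 for Rian, 0.09 for Dlk1 and -0.41 for Mirg. Mirg alone was called by limma there, as a fall (adjusted p = 0.0388). For each gene the effect differed between the cell types (interaction test, adjusted p = 9.03e-05, 0.013, 0.0126 and 0.000369).

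Imprinted genes elsewhere were examined by the parent in which methylation is set and by the copy that is transcribed. Of 19 measured genes with maternal germline methylation and paternal expression 4 fell and 0 rose by limma, where 2.36% of all genes fell. In this list 11 had an unadjusted p under 0.05 and 16 lay below 0, with a median of -0.26. Mest, a member of the alpha/beta hydrolase fold family, was at 11.18 and 11.16 in wild-type and 8.69 and 8.79 in menin-null arrays (difference -2.43, 5.38-fold, SE 0.17, adjusted p = 0.00114). Plagl1, a zinc finger transcription factor, was at 8.79 and 8.74 against 5.99 and 6.39 (difference -2.58, SE 0.16, adjusted p = 0.000773), but its 2 dimmer probe sets differed by -0.07 and -0.04. Nnat, the proteolipid neuronatin, was at 8.67 and 8.79 against 6.93 and 7.03 (difference -1.75, SE 0.09, adjusted p = 0.00027). These 3 genes went from clearly expressed levels to lower ones with no overlap, and the menin-null means of Plagl1 and Nnat were under 7. Magel2, of the MAGE family, fell by 0.57 (adjusted p = 0.0191). The count of 4 was 3 when 1 wild-type array of either cell type was left out, whichever it was, and 2 with the mESC arrays alone.

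Other paternally expressed genes did not share the size of these falls. Peg3, Snrpn, Ndn and Mkrn3 differed by -0.05, -0.10, 0.20 and -0.03, and Kcnq1ot1, Slc38a4 and Inpp5f by -0.36, -0.28 and -0.26, none of them called. The maternally expressed counterparts, 17 genes, had a median of 0.09 with 13 above 0. Cdkn1c, an inhibitor of cyclin-dependent kinases, rose by 0.51 (adjusted p = 0.0338), and Calcr, the calcitonin receptor, fell by 0.65 (adjusted p = 0.0305) at a level under 7. Neither was called without wild-type array 1 or 2, without menin-null array 1, or without 1 wild-type PILEC array. Of the 4 measured genes with paternal germline methylation outside the Dlk1-Meg3 locus limma called 0, where 3.64% of all genes were called. Of these 4, 0 had an unadjusted p under 0.05. Among them Igf2 differed by 0.00 (signal 8.25) and Zdbf2 by -0.01, so that calls were made at some imprinted genes and not at others.

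Of 16 genes that write, remove or protect DNA methylation 1 was called, where 3.64% of all genes were. Dnmt3l, a cofactor of the de novo methyltransferases, fell from 12.12 and 12.13 to 11.54 and 11.45 (difference -0.63, SE 0.12, adjusted p = 0.0334), a call lost whenever any 1 of the 4 mESC arrays or of the wild-type PILEC arrays was left out. Dnmt3b, a de novo methyltransferase, differed by -0.48 (adjusted p = 0.055) and Tet1, which oxidises methylated cytosine, by 0.50 (adjusted p = 0.057). The imprint protectors Zfp57 and Trim28 differed by 0.09 and -0.06, the maintenance enzyme Dnmt1 by -0.03 and its partner Uhrf1 by 0.02. DNA methylation was not measured on these arrays.

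Pluripotency factors differed little between the genotypes. Pou5f1 was at 13.63 and 13.70 in wild-type and 13.65 and 13.67 in menin-null arrays, Sox2 at 12.34 and 12.46 against 12.40 and 12.40, and Nanog at 12.63 and 12.70 against 12.68 and 12.79. The groups overlapped for all 3, and the differences were -0.01 (SE 0.12), 0.00 (SE 0.09) and 0.07 (SE 0.10). Of 15 core and general pluripotency genes limma called 0, with 1 at an unadjusted p under 0.05. Of 11 genes of the LIF and STAT3 pathway it called 0, with 0 at an unadjusted p under 0.05. With 3.64% of all genes called, the absence of calls in lists of this size does not set them apart. Of 16 naive pluripotency genes 1 rose: Tcl1, a coactivator of AKT kinase, from 10.63 and 10.65 to 11.62 and 11.75 (difference 1.04, SE 0.10, adjusted p = 0.00392). Klf4, Esrrb and Nr0b1 differed by 0.28, 0.24 and 0.37 without a call, and the list had a median of 0.08.

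Genes of the primed and formative epiblast, the states that follow naive pluripotency, fell in part. Of 16 measured genes 6 fell and none rose, with a median of -0.45, where 2.36% of all genes fell. Otx2, a homeobox factor of the primed state, was at 9.36 and 9.34 in wild-type and 7.67 and 7.92 in menin-null arrays (difference -1.56, 2.94-fold, SE 0.12, adjusted p = 0.00186). Pou3f1, a POU domain factor, fell by 0.80 (adjusted p = 0.0187) and Cldn6, a tight junction protein, by 0.76 (adjusted p = 0.0073). Sall2 and Zic2, zinc finger factors, each fell by 0.56, and Sox3 fell by 0.47 (adjusted p = 0.0187, 0.022 and 0.033). Fgf5, the usual marker of the primed state, was under 7 in all arrays and differed by -0.01. Without either wild-type array Otx2 alone of these 6 kept the call, without menin-null array 1 the list had 3, and with the mESC arrays alone limma called 0. Otx2 fell in PILECs too, by 1.31, and its effect did not differ detectably between the cell types (difference 0.24, SE 0.17, adjusted p = 0.51).

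Signalling genes changed singly. In the BMP and Nodal pathways 2 of 27 genes rose and 1 fell, where 1.29% of all genes rose and 2.36% fell. Bmp4, a ligand, was at 9.57 and 9.50 in wild-type and 10.59 and 10.82 in menin-null arrays (difference 1.16, 2.24-fold, SE 0.12, adjusted p = 0.00567). Among the target genes of this pathway, which encode inhibitors of helix-loop-helix factors, Id4 rose by 0.79 (adjusted p = 0.029), Id3 fell by 0.58 (adjusted p = 0.024), and Id1 and Id2 differed by 0.41 and -0.08 without a call. The Id genes thus did not move one way, and a response of theirs to Bmp4 was not tested. The other Id4 probe sets differed by 0.91 and 0.35. Nodal, Lefty1 and Lefty2 differed by 0.03, 0.08 and 0.43. None of the 3 calls was kept without wild-type array 1 or 2, and Bmp4 alone was kept without 1 wild-type PILEC array.

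In the Wnt pathway 2 of 29 genes rose and 2 fell, where 1.29% of all genes rose and 2.36% fell. Lef1, a transcription factor that carries the signal, was at 8.37 and 8.48 against 7.43 and 7.49 (difference -0.96, SE 0.08, adjusted p = 0.00221), and Tcf7l2, of the same family, fell by 0.60 (adjusted p = 0.0395). The other Tcf7l2 probe sets differed by -0.86, -0.39 and 0.05. Apc, of the complex that degrades beta-catenin, rose by 0.64 (adjusted p = 0.0234), and Cdx1, a homeobox target of Wnt, by 0.70 (adjusted p = 0.0184) at a level under 7. On its other probe sets Apc differed by only 0.10, 0.25 and 0.31. Axin2, the common target gene of the pathway, differed by 0.24 (adjusted p = 0.15), and Ctnnb1, which encodes beta-catenin, by -0.04. Of 23 genes of the FGF and ERK pathway only Fgf8 was called, with a fall of 0.46 at a level under 7 (adjusted p = 0.0305). Lef1 alone of these 5 kept the call without wild-type array 1 or 2, and Lef1 and 1 riser without menin-null array 1 (Apc) or a wild-type PILEC array (Cdx1). The FGF and ERK list had 3 lower without menin-null array 2.

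Genes of the 2-cell stage, which a small share of mESCs expresses in culture, were lower. Of 31 listed genes 14 were measured by a probe set of their own. Among the 14, 7 fell and none rose, with a median of -0.60, where 2.36% of all genes fell. AF067061 was at 9.68 and 9.73 in wild-type and 7.86 and 7.76 in menin-null arrays (difference -1.90, 3.72-fold, SE 0.12, adjusted p = 0.000818). Usp17la, of a family of deubiquitinases, was at 8.97 and 8.79 against 6.47 and 6.99 (difference -2.15, SE 0.16, adjusted p = 0.00134). Gm20767 was at 7.03 and 7.05 against 4.93 and 4.31 (difference -2.42, SE 0.18, adjusted p = 0.00134), so its wild-type level was itself at the limit for expression. Several of these genes belong to families of near-identical copies, which the probes may not tell apart.

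Fndc3c1, listed under its older symbol Gm784, fell by 1.46 (adjusted p = 0.0022) and Calcoco2, an autophagy receptor, by 1.13 (adjusted p = 0.00175). Sp110 and Rbm44 fell by 0.56 and 0.63, both under 7. Zfp352 and Eif1a differed by -0.48 and 0.01 without a call. The list had 5 members called without wild-type array 1 and 5 without wild-type array 2, the same 5 that fell most, and only AF067061 with the mESC arrays alone. In PILECs limma called 0 of the 14, and 6 of them differed in effect between the cell types. The list had a mean signal of 5.79 in wild-type and 5.81 in menin-null PILECs, under the limit for expression. A fall could hardly be seen there, and the difference in effect mainly repeats the fall in mESCs.

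Of 25 germline genes 7 fell and 1 rose, with a median of -0.14, where 2.36% of all genes fell and 1.29% rose. Mael, of the piRNA pathway, fell by 1.21 (adjusted p = 0.012), and Cyct, the testis form of cytochrome c, by 1.03 (adjusted p = 0.0122). Tex11 and Stk31, testis-expressed genes, fell by 0.77 and 0.75 (adjusted p = 0.00487 and 0.0089). Rhox5 and Rhox6, homeobox genes of the X chromosome, fell by 0.66 and 0.67, and Sohlh2, a germ cell transcription factor, by 0.60. Stag3, a meiotic cohesin subunit, went the other way, from 10.22 and 10.21 to 10.84 and 10.90 (difference 0.65, SE 0.10, adjusted p = 0.0174), and it was higher in menin-null PILECs as well (0.85, adjusted p = 0.00494). Dazl, Ddx4 and Piwil2, defining genes of germ cells, differed by 0.08, -0.13 and -0.01. Without wild-type array 1 only Cyct kept its call, and without wild-type array 2 limma called 0 of the list.

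**Figure D2:**
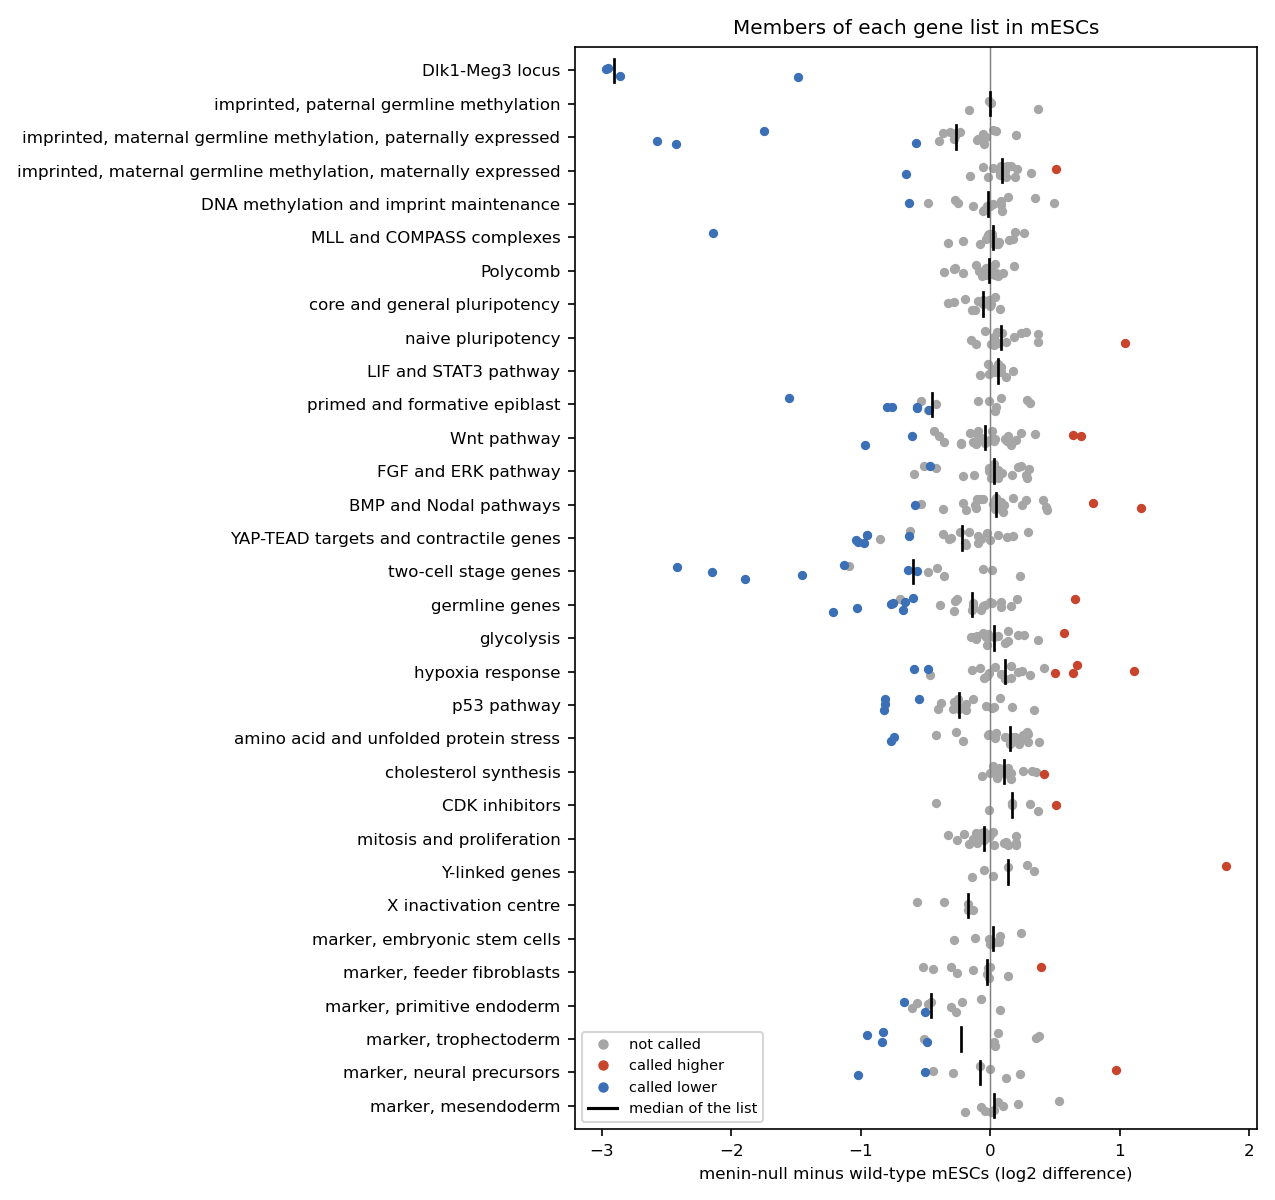
Menin-null minus wild-type log2 difference in mESCs (horizontal axis) of every measured member of 32 gene lists (rows). Each point is a gene, coloured where limma called it higher or lower and grey otherwise, and the black bar is the median of the list. The Dlk1-Meg3 locus has its median at -2.90, and primed epiblast and 2-cell stage genes lie mainly below 0.

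Contractile genes and targets of YAP and TEAD, the factors that read cell tension, lay below 0 in 20 of 24 cases. They had 5 falls, no rise and a median of -0.21, where 2.36% of all genes fell. Tagln, an actin-binding protein, was at 10.999 and 10.928 in wild-type and 9.93 and 9.93 in menin-null arrays (difference -1.03, SE 0.15, adjusted p = 0.0144). Myl9, a myosin light chain, fell by 0.98 (adjusted p = 0.0122), the matrix protein gene Thbs1 by 0.95 (adjusted p = 0.022), and Ajuba, a LIM domain protein, by 0.62 (adjusted p = 0.0175). Ccn1, a secreted target of YAP, fell by 1.02 (adjusted p = 0.00567). Its other probe sets, all with a mean under 7 over the arrays of the series, differed by -1.12, -0.36 and 0.0085. Only the last remains when probe sets with names ending in _s, _x or _a are left out. Yap1 and Tead1 themselves differed by -0.16 and -0.20. Fibroblasts also express contractile genes, and a part of feeder cells in these falls was not tested. Of 11 feeder markers 8 lay under 7 in both groups, 9 were below 0 and the median was -0.02. Thy1 was the only feeder marker called, with a rise of 0.39 (adjusted p = 0.0463) that was not called when any 1 array was left out. In the contractile and YAP list 11 of the 24 had an unadjusted p under 0.05 with all arrays. Without wild-type array 1 its calls were not kept, and without wild-type array 2 that of Ccn1 alone was.

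Markers of cell types that mESC cultures can produce were counted in the same way. Of 10 trophectoderm markers 4 fell, where 2.36% of all genes did. The keratins Krt8 and Krt18 went from 10.51 and 10.48 to 9.68 and 9.66, and from 10.35 and 10.36 to 9.45 and 9.58 (differences -0.83 and -0.84, SE 0.13 and 0.08, adjusted p = 0.019 and 0.00487). Plac8 fell by 0.95 and Krt7 by 0.49, while Cdx2, Eomes and Gata3, the defining factors of that lineage, differed by 0.38, 0.03 and 0.35 without a call. Of 11 primitive endoderm markers 2 fell and 10 lay below 0, with a median of -0.46. Gata4, a zinc finger factor of endoderm, fell by 0.50 (adjusted p = 0.0188) and Sparc, a matrix protein, by 0.67 (adjusted p = 0.0422). The other Gata4 probe set differed by -0.16, and those of Sparc by -0.67 and 0.002. Lama1 and Dab2 differed by -0.61 and -0.57 (adjusted p = 0.055 and 0.089).

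Neural precursor markers were divided. Stmn3, of the stathmin family, rose by 0.97 (adjusted p = 0.00487). Mapt, which encodes tau, and Nes, which encodes nestin, fell by 1.02 and 0.50 (adjusted p = 0.00575 and 0.0341). The other Mapt probe sets differed by only -0.68, -0.45 and -0.25, and those of Nes by -0.34 and -0.19. Of 9 mesendoderm markers limma called 0, with 1 at an unadjusted p under 0.05, where 3.64% of all genes were called. Of the trophectoderm and primitive endoderm calls none was kept without wild-type array 1 or 2, and without menin-null array 1 Krt18 alone was. The neural list had no call without wild-type array 1 and Stmn3 alone without wild-type array 2. The effect on Krt8, Krt18, Plac8, Gata4 and Sparc differed between the cell types: the differences in PILECs were 0.77, 0.87, 0.51, 1.34 and 0.46, and those of Krt8, Krt18 and Gata4 were called rises there.

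Hypoxia response genes were divided, with 4 of 21 higher, 2 lower and a median of 0.11, where 1.29% of all genes were higher and 2.36% lower. Hmox1, which encodes the inducible haem oxygenase, was at 9.58 and 9.47 in wild-type and 10.57 and 10.71 in menin-null arrays (difference 1.11, 2.16-fold, SE 0.11, adjusted p = 0.00516). Egln3, a prolyl hydroxylase, rose by 0.67, Ndrg1 by 0.64 and Ddit4, an inhibitor of mTORC1, by 0.50 (adjusted p = 0.0125, 0.0321 and 0.0175), whereas Car12, a carbonic anhydrase, and Adm, adrenomedullin, fell by 0.59 and 0.48 at levels under 7. The other Adm probe set differed by 0.28, that of Egln3 by 0.32, and those of Car12 by -0.30 and -0.19. Hif1a, Vegfa and Slc2a1 differed by -0.05, 0.16 and 0.12. Glycolysis genes had a median of 0.03, with Hk1, a hexokinase, as the only called one of 17 (0.57, adjusted p = 0.0191). Without wild-type array 1 Hmox1 alone of the hypoxia genes kept its call, and without wild-type array 2 limma called 0. Without menin-null array 1 Egln3 and Hmox1 were called.

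Targets and regulators of p53 had a median of -0.24, with 4 of 20 lower and none higher, where 2.36% of all genes were lower. Plk2, a polo-like kinase, fell from 10.32 and 10.23 to 9.39 and 9.53 (difference -0.82, SE 0.09, adjusted p = 0.00567), although its other probe set differed by 0.13. Gadd45g fell by 0.82, the membrane protein gene Perp by 0.81 and the antiproliferative gene Btg2 by 0.55 (adjusted p = 0.0181, 0.019 and 0.0306). Cdkn1a, the usual readout of p53, differed by 0.17 (adjusted p = 0.40) and Mdm2 by -0.25. No member was called by limma without wild-type array 1 or 2, 2 were without 1 wild-type PILEC array, and 10 of the 20 had an unadjusted p under 0.05 with all arrays.

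Lists of growth and metabolism genes held 0 to 2 called genes each, where 3.64% of all genes were called. Of 23 mitosis and proliferation genes limma called 0, with 4 at an unadjusted p under 0.05, and Mki67, Top2a and Pcna differed by -0.01, 0.02 and 0.14. Among 7 inhibitors of cyclin-dependent kinases Cdkn1c was the only one called. Cdkn1b and Cdkn2c, 2 inhibitors that depend on menin in endocrine cells, differed by -0.42 (adjusted p = 0.056) and 0.17. Of 17 cholesterol synthesis genes 16 lay above 0 with a median of 0.11, and Msmo1, a sterol methyl oxidase, was called (0.41, adjusted p = 0.0356), but its other probe set differed by -0.02. Of 23 amino acid and unfolded protein stress genes Wars, a tryptophan tRNA ligase, fell by 0.77 (adjusted p = 0.00612) and the transcription factor Atf3 by 0.74 (adjusted p = 0.0379), with a median of 0.15. Of these called genes none kept the call without wild-type array 1 or 2, and Wars alone did without menin-null array 1.

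Other large falls belonged to no list. Calml4, a calmodulin-like gene, was at 9.43 and 9.51 in wild-type and 7.24 and 7.57 in menin-null arrays (difference -2.07, SE 0.14, adjusted p = 0.00101). In PILECs it was called lower too (-0.67, adjusted p = 0.0327), but all 4 PILEC arrays were under 7 (5.52 and 5.20 against 4.67 and 4.71), where the size of a difference is uncertain. Pim2, a serine/threonine kinase, was at 11.20 and 11.16 against 9.67 and 9.70 (difference -1.49, SE 0.09, adjusted p = 0.000692). Its relatives Pim1 and Pim3 differed by 0.08 and 0.18, so that in this family the fall was called for Pim2 and not for the others. Gm364 was at 7.38 and 7.39 against 5.73 and 6.00 (difference -1.52, SE 0.20, adjusted p = 0.00956).

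Uba1y, the Y-linked copy of a ubiquitin-activating enzyme gene, had the largest rise. Its signal was 9.43 and 9.38 in wild-type and 11.17 and 11.28 in menin-null arrays (difference 1.82, 3.53-fold, SE 0.16, adjusted p = 0.00348), its other probe set differed by 1.65, and in PILECs it rose as well (1.996). Of the 6 other Y-linked genes measured none was called: Eif2s3y differed by 0.14 and Uty by -0.14 at expressed levels. Uba1y kept the call without each of the 8 arrays and with the mESC arrays alone. Of 5 genes of the X inactivation centre limma called 0, where 3.64% of all genes were called. With all arrays 2 of the 5 had an unadjusted p under 0.05, and Xist differed by -0.17.

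Camk2n1, an inhibitor of the kinase CaMKII, rose from 7.04 and 6.80 to 8.11 and 8.36 (difference 1.31, SE 0.14, adjusted p = 0.00567), and Cd99, a membrane glycoprotein, from 9.42 and 9.39 to 10.52 and 10.36 (difference 1.04, SE 0.09, adjusted p = 0.00221). Both kept the call without each of the 8 arrays. Cd99 was higher in menin-null PILECs as well, by 0.87 (adjusted p = 0.00281). The remaining rises of the first 15 were Robo4, Pla2g5, Nkx6-3, Osbpl10, Stmn3, Elavl3, Mras, Ankrd35 and Igsf21, between 0.89 and 1.16. They include a homeobox gene (Nkx6-3), a neuronal RNA-binding protein (Elavl3) and a small GTPase (Mras), and 6 of the 9 lost the call without wild-type array 1 and without wild-type array 2. On other probe sets Osbpl10 differed by 0.18, Mras by 0.49, and Elavl3 by 0.50 and 0.65.

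When expressed genes were set in their order along the chromosomes, neighbours differed together. On chromosome 8 the median of 609 expressed genes was 0.147, and 79.8% were higher in menin-null mESCs. The medians were 0.126 in menin-null array 1 and 0.167 in array 2. Chromosome 8 held 51 of the 234 genes called higher (21.8%), against 5.12% of all tested genes, among them Hmox1, Nkx6-3 and Msmo1. On chromosome 1 the median of the expressed genes was -0.113, 26.5% were higher, and of the called ones 29 were lower and 0 higher. The other 18 chromosomes besides Y had medians from -0.058 to 0.032 with 36.5% to 57.0% of genes higher, so, with Y left out, chromosomes 8 and 1 stood at the ends of the range in both menin-null arrays. These shifts are smaller than the differences of single called genes, and they had no test.

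**Figure D3:**
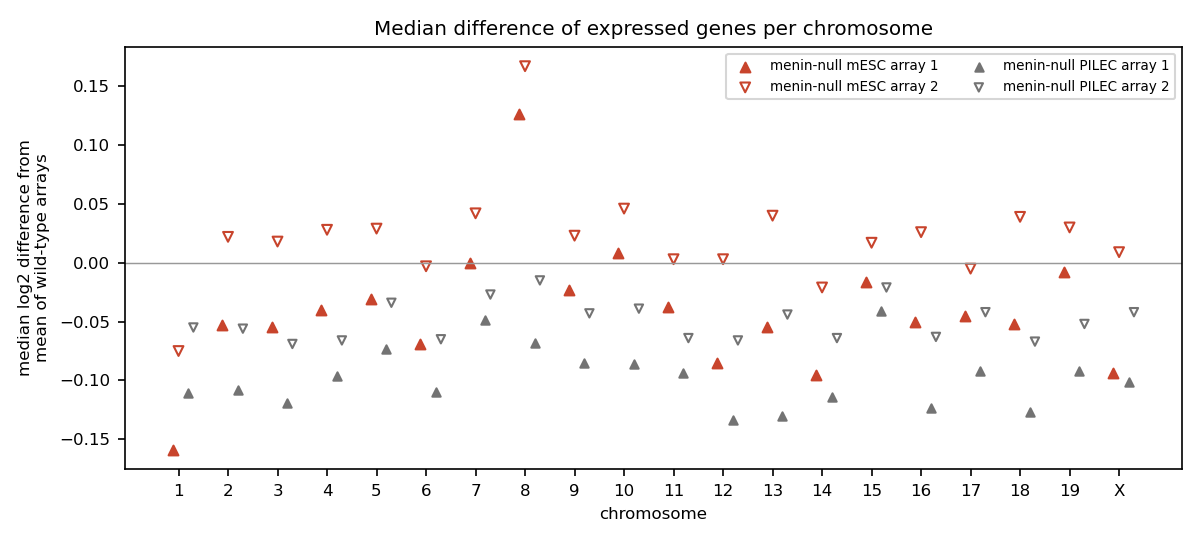
Median log2 difference from the mean of the wild-type arrays (vertical axis) of the expressed genes of each chromosome other than Y (horizontal axis), for each menin-null array, red for mESCs and grey for PILECs. Among those drawn, chromosome 8 stands highest in both mESC arrays (0.126 and 0.167) and chromosome 1 lowest (-0.159 and -0.075).

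Shorter stretches stood out in windows of 15 neighbouring expressed genes. Windows whose median was at least 0.3 in size, a limit set after the values were seen, joined into 8 runs of 225 genes in all, 5 lower and 3 higher. The most marked was on chromosome 12 from Tcl1 to Xrcc3, where 34 of 42 genes were below 0 with a median of -0.54, 22 fell and Tcl1 rose. This run holds the Dlk1-Meg3 locus and Wars. A second run on chromosome 12, from Mideas to Ngb, had 34 genes with a median of -0.37, of which 14 fell. The 15 genes before and after these runs were close to 0, at 0.04 and 0.02 around the run that starts at Tcl1 and at -0.03 and 0.01 around the one that starts at Mideas.

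On chromosome 10 a run of 26 genes from Slc29a3 to Ddx50, which includes Hk1, was higher (0.27, with 4 called), and a run of 17 genes from Hebp2 to Ccn2, which includes Perp, was lower (-0.32, with 2 called). On chromosome 8 the runs from Elmod2 to Misp3 and from Gins3 to Hsd11b2 had medians of 0.31 and 0.38, with 3 and 10 called higher. On chromosome 1 the run from Lamc1 to Cryzl2 had a median of -0.23 with no call, and that from Susd4 to Syt14, which includes Atf3, -0.32 with 6 lower. Without wild-type array 1 the number lower from Tcl1 to Xrcc3 was 4, and without wild-type array 2 it was 5, while the median stayed between -0.57 and -0.49 over the 4 mESC arrays left out. From Mideas to Ngb limma called 0 and 1 in these settings, with medians from -0.43 to -0.33, and on chromosome 8 the run from Gins3 to Hsd11b2 had 0 called in both, with medians from 0.30 to 0.34. From Susd4 to Syt14 the number lower was 1 when either wild-type array or menin-null array 1 was left out and 12 when menin-null array 2 was. Outside chromosome 8 and the runs, 178 genes were called higher and 378 lower. DNA copy number was not analysed here, and its part in these differences was not tested.

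**Figure D4:**
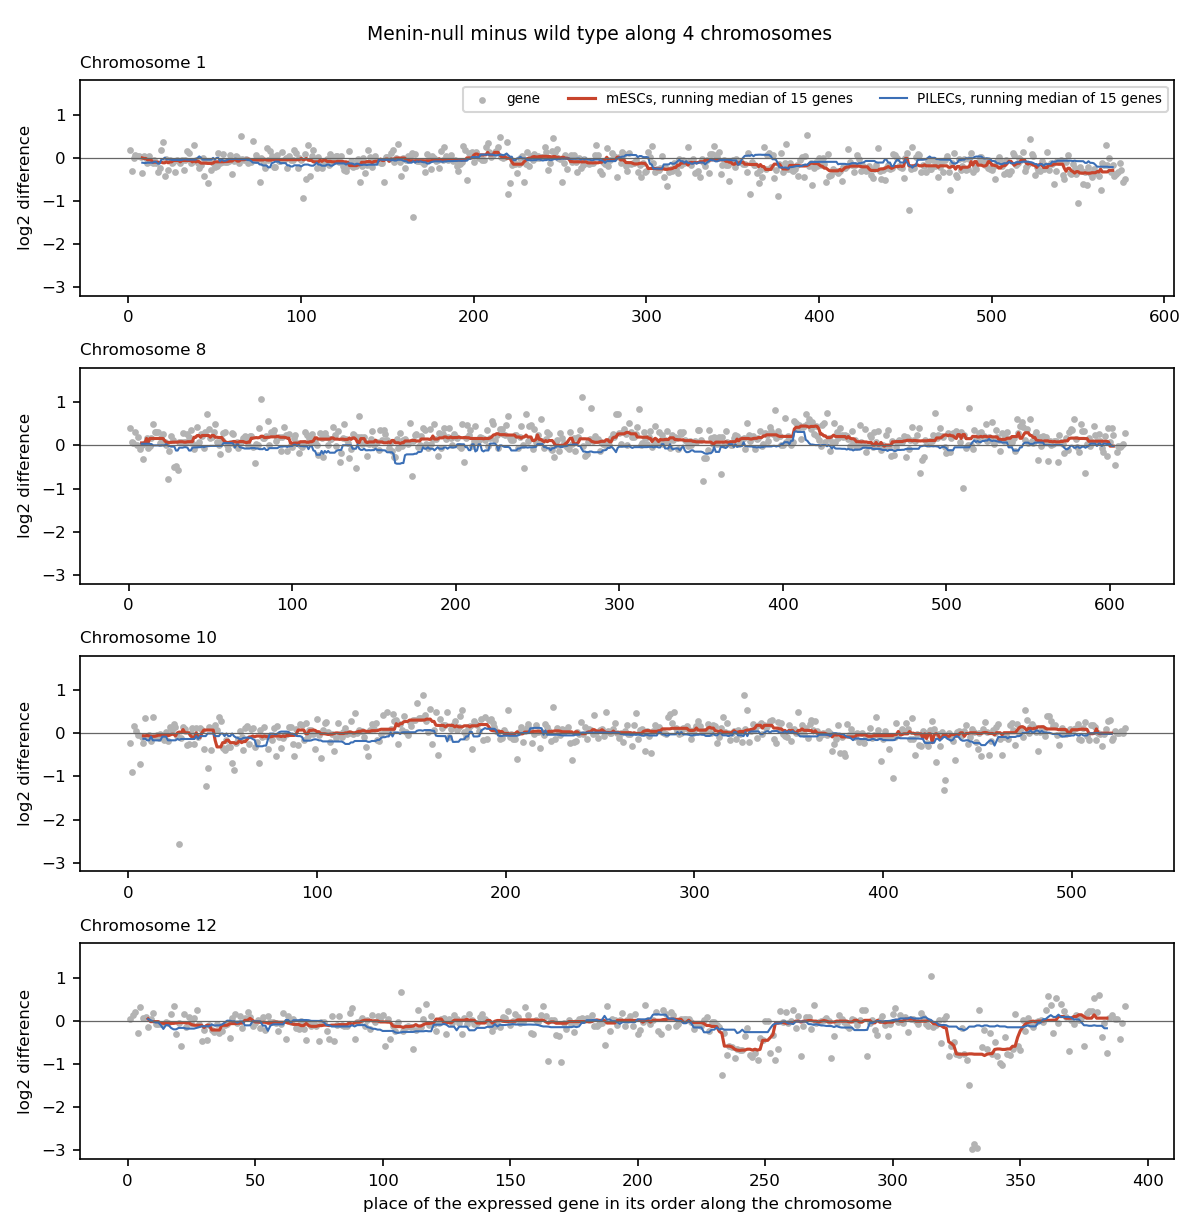
Difference between the genotypes in mESCs (vertical axis, log2, menin-null minus wild type) for expressed genes (grey points) in their order along chromosomes 1, 8, 10 and 12 (horizontal axis, place in the order). Red and blue lines are running medians of 15 genes in mESCs and in PILECs. Chromosome 12 shows 2 stretches below 0 in mESCs, the second holding Meg3, Rian, Mirg and Dlk1, and chromosome 8 lies above 0 over most of its length.

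Of the 663 genes called in mESCs, 225 (33.9%) differed in their menin-null effect between mESCs and PILECs by the interaction test, against 557 of all 18193 genes (3.06%). The first share describes genes picked for an effect in mESCs and carries no support of its own. 96 of the 663 were called in the same direction in PILECs, 65 lower and 31 higher, and 28 in the opposite direction, where 6.68% of all genes were called in PILECs. Bmp4 was opposite, with a fall of 0.69 in PILECs (adjusted p = 0.021), as were Krt8, Krt18, Gata4, Rhox5, Cldn6 and Magel2, whose PILEC differences were 0.77, 0.87, 1.34, 0.63, 0.51 and 0.40. Men1, Otx2, Uba1y, Cd99, Stag3, Tcf7l2 and Id3 were called in the same direction in both cell types, and for these the difference between the effects was not called. Chromosome 8 had a median of -0.04 in PILECs, where all chromosomes except Y lay between -0.102 and -0.026. The number of genes with a called difference between the effects fell to 66 and 75 when wild-type mESC arrays 1 and 2 were left out in turn, to 72 and 75 for the wild-type PILEC arrays, and to 245 and 209 for the menin-null PILEC arrays.

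**Figure D5:**
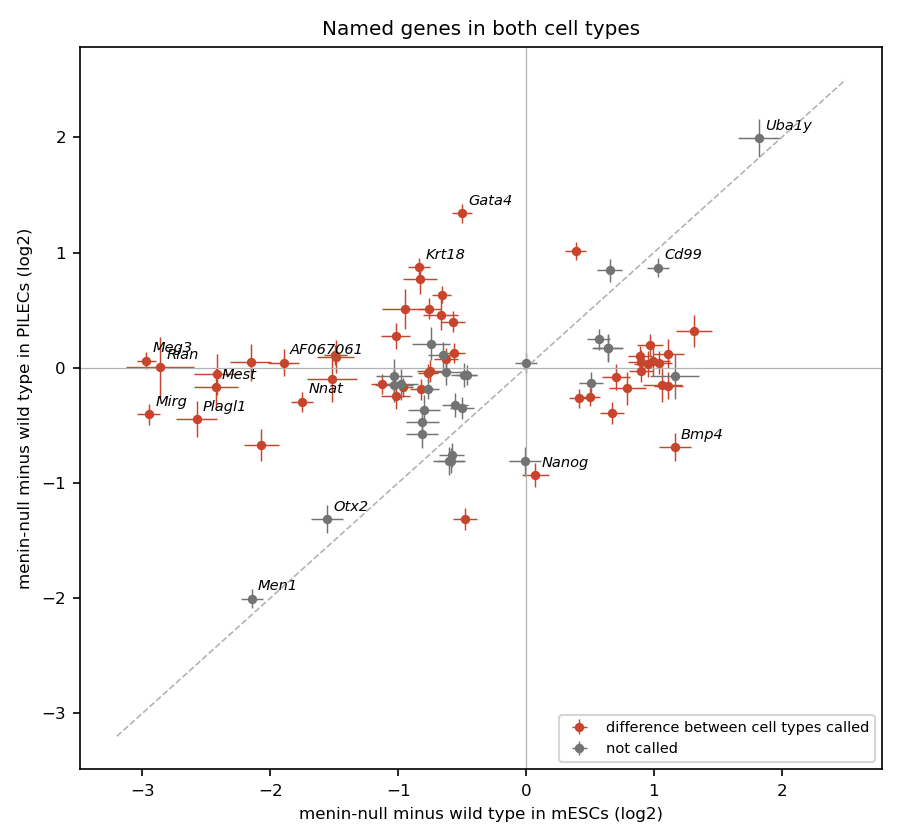
Menin-null minus wild-type log2 difference in mESCs (horizontal axis) and in PILECs (vertical axis) of 79 named genes. Points are estimates with 1 SE in each direction, red where limma called the difference between the effects, and the dashed line marks equal effects. Men1, Otx2, Uba1y and Cd99 lie near the dashed line, and Meg3, Rian and Mest near 0 on the vertical axis.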

How the data were processed

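Total RNA of 8 cultures, 2 in each of 4 groups, was measured on Affymetrix mouse genome arrays. The values deposited by the authors are log2 signals of probe sets, from 3.26 to 15.16. In the submitters' processing notes RMA and Partek are listed without versions, while the methods name Microarray Analysis Suite 5.0, so the software behind the values is not settled. Controls (64), probe sets with no symbol (9160) and those with several symbols (932) of the 45101 were left out of gene tests, as shared probes cannot name 1 gene. Each of 18193 genes was read from its brightest probe set over the 8 arrays, a choice that decided the value for 9010 genes with more than 1 probe set. The number of table columns without a sample was 0.

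Group means were fitted to all 8 arrays with limma 3.58.1 (lmFit and eBayes, R 4.3.3; 4 residual and 3.72 prior degrees of freedom), so PILEC arrays share in the spread. P-values were adjusted by Benjamini and Hochberg over 18193 genes. The fit was tested on simulated data. The count at the threshold of the methods, 2-fold or more at an unadjusted p below 0.005, was 10 higher (0.055%) and 67 lower (0.368%). Replicate numbers were not taken to pair the cultures. Gene order and names follow RefSeq GRCm38.p6, and no coordinates were given to probe sets. Figures and tables used pandas 2.3.3 and matplotlib 3.10.9. The number of arrays limits the precision.

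Named genes were Men1, the Dlk1-Meg3 locus, the 15 largest rises and falls among called, expressed genes whose arrays do not overlap, up to 4 called members per direction of each list by lowest adjusted p, and Pou5f1, Nanog and Sox2. Further list members were named after their values were seen. The comparison, the members and the 32 gene lists were chosen with earlier results of these data known, so no list is independent evidence. Alternatives were another normalization, centring, other choices of probe set, an expression filter, other variance models, a replicate block, and leaving out each array.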

Additional observations from a re-analysis of the deposited data

Results flagged for a closer look

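For 50 of the 79 named genes the menin-null effect differed between the cell types by limma's interaction test (adjusted p under 0.05), against 3.06% of all genes. Most named genes were picked for an effect in mESCs, so this count carries no support of its own. Tex11, Stk31, Gm364, Nkx6-3, Pla2g5, Ankrd35 and Tcl1, among others, were under 7 in every PILEC array, where a change could hardly be seen. The values below are the log2 effect in PILECs minus that in mESCs. At the Dlk1-Meg3 locus it was Dlk1 1.58, Meg3 3.03, Rian 2.86 and Mirg 2.54. At other imprinted genes it was Plagl1 2.13, Mest 2.26, Nnat 1.46 and Magel2 0.97. Among 2-cell stage genes it was Gm20767 2.36, Usp17la 2.20, AF067061 1.94 and Calcoco2 0.99. Germline genes gave Tex11 0.73, Rhox5 1.29 and Stk31 0.73. In the epiblast list the values were Cldn6 1.27 and Sall2 0.69. For signalling genes they were Lef1 0.79, Cdx1 -0.79, Bmp4 -1.85 and Id4 -0.97. Contractile and fibroblast genes gave Ccn1 0.77, Ajuba 0.70 and Thy1 0.62. Lineage markers gave Gata4 1.84, Sparc 1.13, Krt18 1.71, Krt8 1.60, Plac8 1.46, Mapt 1.29 and Stmn3 -0.77. Stress, hypoxia and metabolism genes gave Hmox1 -1.27, Egln3 -1.06, Ddit4 -0.76, Adm -0.84, Plk2 0.63 and Msmo1 -0.68. The other large falls gave Calml4 1.40, Gm364 1.42 and Pim2 1.60. The other large rises gave Camk2n1 -0.99, Pla2g5 -0.99, Nkx6-3 -1.21, Tcl1 -0.999, Osbpl10 -0.94, Elavl3 -0.93, Mras -0.85, Ankrd35 -0.93 and Igsf21 -0.79. For Nanog, which was not called in mESCs, it was -1.01, with a fall of 0.93 in PILECs.

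Chromosomes 8 and 10 had medians above 0 in both menin-null mESC arrays (0.147 and 0.032 for the group) and below 0 in both menin-null PILEC arrays (-0.04 and -0.065). All other chromosomes except Y also had medians below 0 in both menin-null PILEC arrays. The difference of chromosomes 8 and 10 between the cell types was not tested.

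Probe sets left out of the gene tests held differences as well. In a fit of all probe sets other than controls, 81 of 9160 without a symbol were called in mESCs (18 higher and 63 lower), and 30 of 932 with several symbols (6 higher and 24 lower). With 2 arrays per group no search for single deviating arrays was possible.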

How the results depend on the processing

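The number of genes changed in mESCs (663, of which 234 were higher and 429 lower) depended on how the spread was estimated. With the mESC arrays alone it was 12 (1 and 11), without moderation of the variance 65 (23 and 42), with a variance trend and robust moderation 1343 (559 and 784), and at 2-fold with an unadjusted p under 0.005 it was 77 (10 and 67). Leaving out 1 array at a time gave 44 to 1430 changed, 7 to 599 higher and 37 to 831 lower. Among genes with a group mean of at least 7 the number higher was 370. The difference between the effects in PILECs and mESCs, called for 557 genes, was called for 47 without moderation, 1402 with the trend, 875 among genes of at least 7, 248 at the 2-fold threshold, and 66 to 800 when 1 array was left out. Array number 1 minus number 2 correlated across genes at -0.277 between the mESC groups, at 0.209 between menin-null mESCs and menin-null PILECs, and at -0.23 to 0.064 between the other 4 pairs of groups. As these were not all above 0.1, equal numbers were not taken to mark paired cultures. With the replicate number as a block 410 genes changed (121 higher, 289 lower) and 286 differed between the cell types, and with the numbers of the menin-null arrays crossed, tried after seeing the data, 779 changed and 673 differed. Without probe sets ending in _s, _x or _a Ccn1 turned to 0.0085 (adjusted p = 0.988) and Msmo1 to -0.0194 (adjusted p = 0.94), and Dlk1, Plagl1 and Thy1 lost the call. No other named call changed sign under any alternative. The highest median of a window of neighbours was 0.449 with 15 genes and 0.479 with 9. The medians of chromosomes 8 and 1 kept their sign, at 0.126 to 0.167 and -0.159 to -0.075. The causes were not tested. Signal over background was not analysed here, and differences of genes under 7, which 114 of the 663 were in both groups, are uncertain in size.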
